A study of Mus musculus with 25 samples.

Results

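The miRNAs miR-221 and miR-222 are a pair made from neighbouring hairpins on the X chromosome, and they were followed here by name as the entries mmu-miR-221-3p, mmu-miR-222-3p and mmu-miR-221-5p, 3 of 1493 entries in the table. The pair was selected on measured values, since the rise of both guide strands from 6 weeks to 14 months in these libraries was already known. Counts came from small extracellular vesicles, the small membrane-bound particles that cells shed, prepared from liver. All mice were wild-type C57BL/6J and were aged 1 week, 6 weeks, 6 months, 12 months or 14 months, with 5 mice and 5 libraries at each age and 25 libraries in all. No treatment is named in the labels. Tissue was stored frozen and opened with a dissociation kit made for human tumours, and vesicles were then collected by ultracentrifugation, so vesicles of every cell type of the liver, and of blood held in it, are pooled in each library. Both sexes are described as used in equal parts, which 5 mice at each age and 25 in all cannot meet exactly. The sex of each mouse is not given, which bears on an X-linked pair and could not be examined. The batch field of the labels repeats the age, so age and handling cannot be told apart.

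Animal miRNAs guide a silencing complex to messenger RNAs through their seed, the bases 2 to 8 from the 5′ end. The guide strands miR-221-3p and miR-222-3p share a seed and are known to repress the cell cycle inhibitors p27 (Cdkn1b) and p57 (Cdkn1c), the matrix protease inhibitor Timp3 and the receptor Kit. They are known from endothelium and vascular smooth muscle, and their level is raised in many liver tumours and in fibrotic liver. The mature sequences below, from RefSeq on GRCm38.p6, have the seed in capitals and show what the guide strands have in common and what sets them apart. All 3 entries were matched in that reference, and their lengths of 23, 23 and 26 bases equal those in the deposited table.
miR-221-3p: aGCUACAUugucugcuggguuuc
miR-222-3p: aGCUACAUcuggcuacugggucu
miR-221-5p: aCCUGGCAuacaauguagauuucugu
miR-1928: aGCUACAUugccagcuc
The first 8 bases of miR-221-3p and miR-222-3p are identical, and 11 of 23 positions match when both are read from base 1, so the 3′ parts differ enough to tell their reads apart. No other entry had counts within 0.3 log2 units of either guide strand in every library. Among 1679 mature names in the reference, 3 carry this seed. The remaining one, miR-1928, shares its first 10 bases with miR-221-3p, lies on chromosome 1 and has no entry in the deposited table.

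The hairpins are shown with the mature strands listed above in capitals, to place each arm in its precursor.
Mir221: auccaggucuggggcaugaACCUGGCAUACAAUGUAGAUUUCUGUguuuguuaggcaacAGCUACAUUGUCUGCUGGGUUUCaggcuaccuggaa
Mir222: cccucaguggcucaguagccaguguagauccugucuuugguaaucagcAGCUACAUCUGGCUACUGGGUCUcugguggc
Mir221 lies on the minus strand at chrX:19146294-19146388 and Mir222 on the same strand at chrX:19146893-19146971, with 504 bases between them, so Mir222 is the 5′ member. In GENCODE M21, which uses the same build, no other gene overlaps the hairpins. The nearest gene is Gm14636, a processed transcript on the same strand (19156981 to 19167241) whose 3′ end lies 10009 bases upstream of Mir222.

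Totals per library lay between 641579 and 6888928 counts, and the 1-week libraries were the deepest on average (2095925 to 6888928). Levels are given as counts per 1000000 (CPM) after scaling with TMM factors. The liver miRNA miR-122-5p was at 402281 CPM in the mean at 1 week and 637212 CPM at 6 months, while vesicle proteins cannot be checked in such a table. These scaled values are not shares of the raw totals. By library totals alone the log2 fold change of miR-122-5p between these ages was -0.12. Scaling matters for every comparison with 1 week: against TMM, library totals alone moved the median log2 fold change of all 391 tested entries by -0.78 for 6 months and -0.79 for 12 months, DESeq2 size factors by -0.49 and -0.46, and upper-quartile factors by 0.43 and 0.45. Of the 3 members, miR-221-3p and miR-222-3p passed the filter on low counts and miR-221-5p did not.

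The level of miR-221-3p was lowest at 1 week. In the 1-week libraries it was at 92.0, 110, 120, 159 and 163 CPM, a mean of 129 ± 31.0 (SD, n = 5). At 6 weeks the libraries held 507, 539, 552, 631 and 695 CPM (585 ± 76.6). At 6 months they held 790, 890, 920, 1003 and 1140 CPM (949 ± 131). Every adult library was thus above every 1-week library, and every 6-month library was above every 6-week library. Over all tested entries, 71.9% were called in either direction and 35.0% higher at 6 weeks than at 1 week, and 72.9% and 35.5% at 14 months. From 6 weeks to 6 months the shares were 1.79% and 1.02%. The 12-month libraries were at 654, 852, 862, 921 and 1013 CPM (861 ± 132), and the 14-month libraries at 728, 765, 932, 985 and 1056 CPM (893 ± 142). Mouse 17, at 654 CPM, was the only 12-month library within the 6-week range. In the order of means, 6 months came first, followed by 14 months, 12 months, 6 weeks and 1 week, and the first 3 overlapped throughout. By mean level miR-221-3p was 112th of 1095 named entries at 1 week, 49th at 6 weeks and 45th at 6 months.

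Its neighbour miR-222-3p was several times scarcer and followed a like course. At 1 week it was at 16.6, 20.9, 22.2, 35.0 and 51.6 CPM (29.3 ± 14.3), the last being mouse 27, which gave the deepest library. At 6 weeks it was at 52.3, 62.0, 64.2, 68.1 and 73.9 CPM (64.1 ± 8.02), and at 6 months at 76.3, 125, 127, 129 and 136 CPM (119 ± 24.1). The ranges of 1 week, 6 weeks and 6 months did not overlap, although mouse 27 came within 1 CPM of the lowest 6-week library. Over all tested entries 35.0% were called higher at 6 weeks and 36.8% at 6 months than at 1 week. From 6 weeks to 6 months the share was 1.02%. How many of all entries have ranges without overlap was not counted. As shares of raw totals the 1-week range of miR-222-3p overlapped those of 6 weeks and of 14 months. At 12 months the values were 79.1, 103, 114, 115 and 121 CPM (106 ± 16.7), and at 14 months 108, 114, 120, 121 and 121 CPM (117 ± 5.86). The 3 oldest ages overlapped, as they did for miR-221-3p. The counts behind these values ran from 38 to 548 for miR-222-3p and from 303 to 2615 for miR-221-3p, so a library of few counts fixes miR-222-3p less closely.

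**Figure D1:**
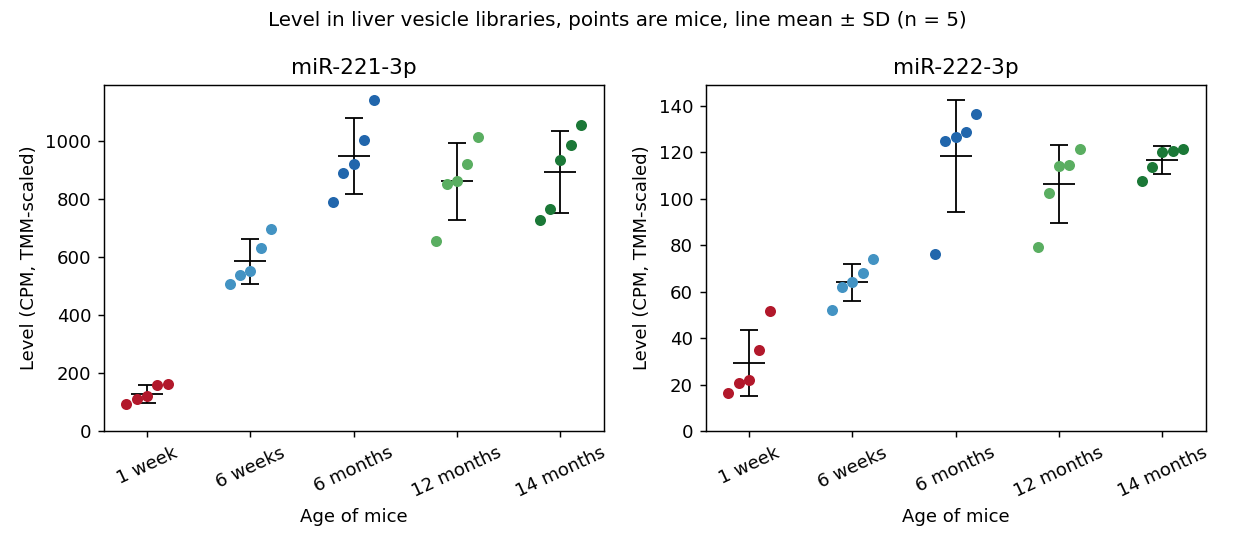
Levels of miR-221-3p (left) and miR-222-3p (right) in CPM on linear axes that start at 0, by age; each point is the library of 1 mouse, sorted by value within its age, and black lines are the mean ± SD of 5 mice. The 1-week libraries lie below all adult libraries in both panels, at no more than 163 and 51.6 CPM, and the 3 oldest ages overlap.

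Whether the pair differs between the first week and later adult life was tested at 6 and 12 months, the adult ages whose libraries had no part in choosing the pair. Both guide strands rose. From 1 week to 6 months the log2 fold change of miR-221-3p was 2.88 ± 0.18 (SE), or 7.36-fold (edgeR adjusted p = 3.52e-13), and that of miR-222-3p was 2.01 ± 0.24, or 4.02-fold (adjusted p = 5.73e-08). In this comparison 36.8% of tested entries were called higher and 74.7% were called in either direction, so a call alone does not set the pair apart. The change of miR-221-3p was the 19th highest and that of miR-222-3p the 44th highest of 339 named and tested miRNAs. From 1 week to 12 months miR-221-3p rose by 2.74 ± 0.17 (adjusted p = 9.85e-13) and miR-222-3p by 1.85 ± 0.24 (adjusted p = 1.80e-07), where 33.2% of entries were called higher, 38.4% lower and 71.6% in either direction. In both comparisons 5 of 5 adult libraries were above all 5 of 1 week for each strand, also as shares of raw totals. The size rests on the scaling: with library totals alone miR-221-3p was at 2.07 and 1.92 and miR-222-3p at 1.22 and 1.05 (largest adjusted p = 0.000259), and no alternative ended a call. With log2 library total in the model, miR-221-3p was at 2.92 and 2.76 and miR-222-3p at 2.37 and 2.07. Depth went largely with age, with totals of 2095925 to 6888928 at 1 week and 1052751 to 2485335 at 6 months. This model therefore cannot tell depth and age apart.

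Between 6 and 12 months neither strand passed the test. The log2 fold change was -0.14 ± 0.16 for miR-221-3p (edgeR adjusted p = 0.875) and -0.15 ± 0.24 for miR-222-3p (adjusted p = 0.908). By 95% normal intervals from the SE, the change of miR-221-3p lay between 0.73-fold and 1.13-fold and that of miR-222-3p between 0.65-fold and 1.24-fold, so a 2-fold change in either direction lies outside both ranges. None of the 391 entries (0%) was called between these ages by edgeR or by DESeq2, with 28 and 30 at an unadjusted p under 0.05. Without mouse 14, the highest 6-month library for miR-221-3p, that strand was at 0.042.

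Both strands were among the 13 entries (3.32% of those tested, with 3.84% called in either direction) higher at 14 months than at 6 weeks, which is how the pair was chosen. Contrasts that use these 2 ages are therefore given as description, with no test. The log2 fold change from 6 weeks to 14 months was 0.61 ± 0.16 for miR-221-3p and 0.86 ± 0.24 for miR-222-3p. The values from 6 weeks to 6 months, 0.70 ± 0.17 and 0.89 ± 0.24, were of the same size, and those from 6 weeks to 12 months were 0.56 ± 0.16 and 0.73 ± 0.24, where 5.63% of entries were called in either direction and 3.84% higher. From 6 months to 14 months they were -0.087 ± 0.16 and -0.024 ± 0.24, and from 12 to 14 months 0.053 ± 0.16 and 0.13 ± 0.24. The 6-month libraries thus already stood at the level of the 14-month libraries. These contrasts share the 6-week libraries and are not separate pieces of evidence. From 1 week to 6 weeks the changes were 2.18 ± 0.17 and 1.12 ± 0.24, and 1.51 and 0.48 by library totals alone.

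Scaling by library totals alone lowered the adult difference of both strands by similar amounts. As shares of raw totals, miR-221-3p ran from 490 to 658 CPM at 6 weeks and from 540 to 905 at 14 months, and only 3 of 5 old libraries were above all young ones. The exceptions were mouse 24 at 550 and mouse 25 at 540. With library totals alone the log2 fold change from 6 weeks to 14 months was 0.37 ± 0.18. For miR-222-3p the raw shares still did not overlap (53.3 to 71.0 against 77.6 to 112), and the fold change was 0.61 ± 0.23. At 6 months the raw shares of miR-221-3p, 812 to 881, were all above those at 6 weeks.

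**Figure D2:**
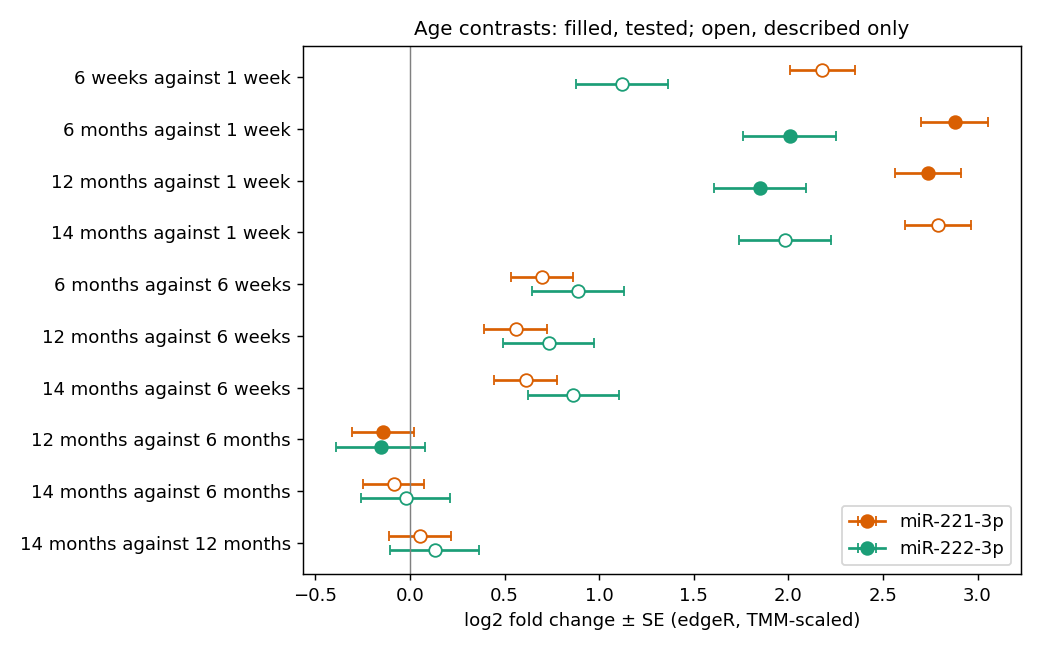
Log2 fold changes ± SE of miR-221-3p and miR-222-3p for the 10 pairs of ages, from 1 edgeR model of all 25 libraries; filled points were tested and open points are description, since they use the 6-week or 14-month libraries. The 4 contrasts with 1 week lie farthest to the right, at up to 2.88, and the contrasts among 6, 12 and 14 months lie near 0.

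The strands did not rise in step, which their counts within each library show free of any scaling. At 1 week there were 15.1, 17.3, 22.1, 24.1 and 31.7 counts of miR-222-3p per 100 of miR-221-3p. At 6 months there were 9.66, 11.3, 13.6, 13.6 and 14.2, and at 12 months 11.1, 11.3, 12.1, 13.4 and 14.1. Every 1-week library was above all libraries of both these ages. Over all tested entries 74.7% and 71.6% were called in either direction at these ages against 1 week. How many other pairs of entries have ratios that separate in this way was not computed. The log2 ratio was -2.23 ± 0.42 (SD, n = 5) at 1 week, -3.02 ± 0.24 at 6 months and -3.02 ± 0.15 at 12 months. The difference was -0.79 for 6 months and -0.79 for 12 months against 1 week (exact two-sided permutation p = 0.00794 each, the smallest that 5 against 5 can give, adjusted p = 0.0238 over 6 ratio tests). Between 6 and 12 months the difference was 0.00067 (exact p = 1). The highest ratio was again that of mouse 27, and without it the differences were -0.65 each (exact p = 0.00794, adjusted p = 0.0238). At 6 weeks the ratios were 9.69, 9.82, 10.6, 12.3 and 12.7, and at 14 months 11.5, 12.2, 12.9, 14.1 and 15.6, so mouse 25 at 14 months reached into the 1-week range.

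**Figure D3:**
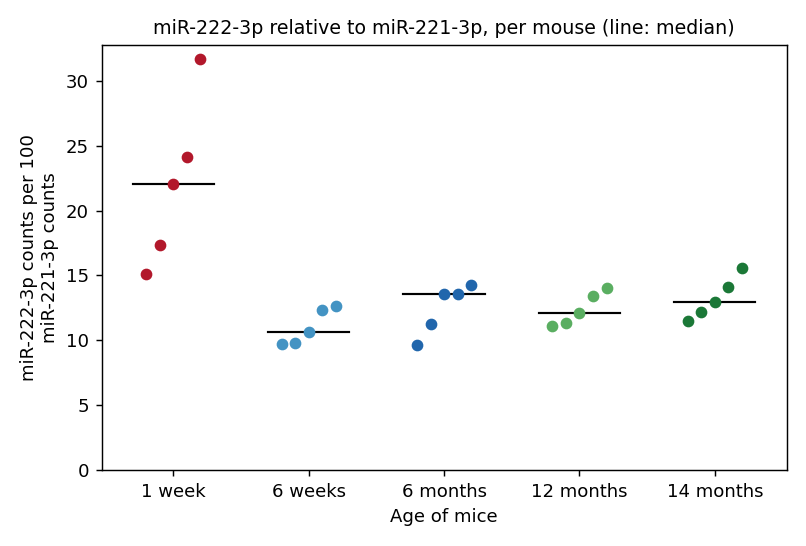
Counts of miR-222-3p per 100 counts of miR-221-3p in each library, by age, on a linear axis that starts at 0; each point is 1 mouse and the line is the median of 5. The 1-week libraries run from 15.1 to 31.7 and all adult libraries from 9.66 to 15.6.

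The opposite arms were rare. The passenger strand miR-221-5p had 174 counts in all against 29198 of miR-221-3p, or 0.592% of the pooled counts of the hairpin (95% Wilson interval 0.511 to 0.687%). The 5p arm of the neighbouring hairpin, miR-222-5p, which is not among the members, had 176 counts, 42 of them from mouse 27, or 4.06% of its hairpin (3.51 to 4.69%). By this measure the hairpins differ in how much of the 5p arm is found, and the intervals cover counting error only. In the 1-week libraries miR-221-5p was at 0, 0, 0.680, 1.51 and 2.58 CPM, the zeros lying below floors of 3 counts, which equal 0.802 and 0.911 CPM. At 6 months it was at 2.80, 3.51, 6.25, 6.72 and 7.85 CPM, above every 1-week library, and at 12 months at 1.24, 3.56, 4.23, 4.40 and 6.84 CPM, with 4 of 5 above. The 2.80 CPM at 6 months was 3 counts, which is the floor of that library. The 1.24 CPM at 12 months was 1 count, below a floor of 3.71 CPM. Over all tested entries 36.8% and 33.2% were called higher at these ages than at 1 week. At 6 weeks miR-221-5p ran from 0 to 6.98 CPM (median 1.77), the 0 lying below a floor of 4.89 CPM. At 14 months it ran from 2.24 to 6.43 CPM (median 4.21).

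Since it missed the filter, miR-221-5p has no value in the main test. Without a filter it was higher at 6 months than at 1 week by 2.12 ± 0.66 (edgeR adjusted p = 0.00657) and at 12 months by 1.92 ± 0.64 (adjusted p = 0.0138). With 1 library left out the filter asks for 4 libraries instead of 5 and admits the strand. It is then admitted through adult libraries, since the highest 1-week library was at 2.58 CPM and the highest adult library at 7.85 CPM. The 10 fits for each of these comparisons share most libraries and are description only, with log2 fold changes of 2.10 to 2.91 and 1.77 to 2.58. The balance of the arms did not differ detectably between ages: the log2 ratio of miR-221-3p to miR-221-5p was 7.75 ± 1.64 at 1 week, 7.42 ± 0.49 at 6 months and 7.73 ± 0.80 at 12 months (SD, n = 5; smallest exact permutation p = 0.5, adjusted p = 0.976). The SD at 1 week was above 1 log2 unit, and the few counts of the 5p arm limit this comparison.

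Mice of the same age that were high in one guide strand tended to be high in the other. After the mean of each age was taken off, the deviations of miR-221-3p and miR-222-3p in log2(CPM + 1) had a Pearson r of 0.72 (permutation within age, p = 0.00067, adjusted p = 0.00268 over 4 relations) and a Spearman rho of 0.74 (adjusted p = 0.00076) over 25 libraries. Without the 2 libraries farthest from the median of miR-221-3p, mouse 5 at 1 week and mouse 17 at 12 months, r was 0.69. Mouse 27 at 1 week, with the largest deviation of miR-222-3p (0.92, and 0.37 for miR-221-3p), stayed in, and r without it was not computed. Both values of a library share its scaling factor, and with library totals alone r was 0.67, the lowest of the 3 alternatives. For miR-221-3p and miR-221-5p r was 0.24 (permutation p = 0.275, adjusted p = 0.366; rho 0.27).

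The strands were also read against depth. Within ages, miR-222-3p had an r of 0.47 with log2 library total (permutation p = 0.0326, adjusted p = 0.0652; rho 0.43), and without mouse 27 and mouse 20, the libraries farthest in depth, r was 0.27. For miR-221-3p r was 0.090 (permutation p = 0.71; rho 0.048). The correlation of miR-222-3p with depth passed its threshold with DESeq2 size factors (r = 0.51, permutation adjusted p = 0.0365) and in the 15 libraries of 1 week, 6 months and 12 months (r = 0.62, adjusted p = 0.0260). By library totals alone it was 0.28 (permutation p = 0.239). In the same 15 libraries miR-221-3p had an r of 0.50 with depth (permutation adjusted p = 0.0870), and whether the strands differ in this relation was not tested. The part of depth in the ratio of the strands was not tested.

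**Figure D4:**
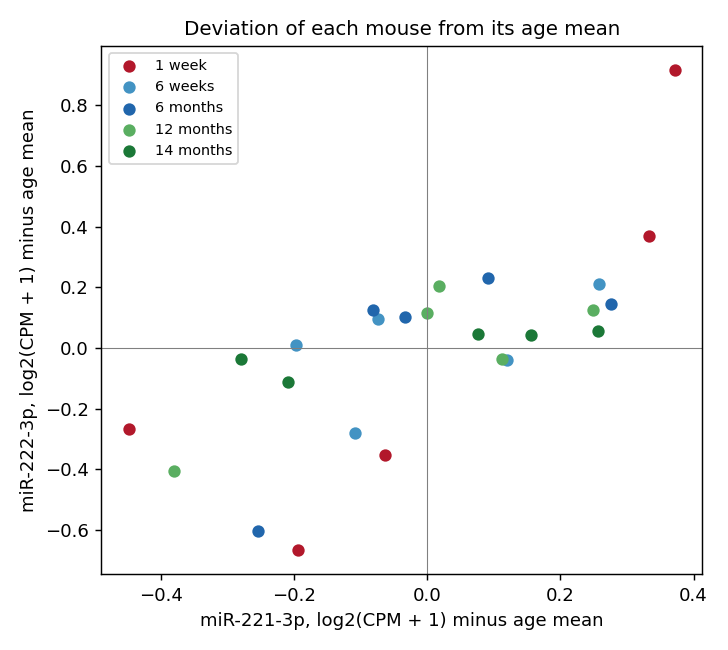
Deviation of each mouse from the mean of its age for miR-221-3p (x axis) and miR-222-3p (y axis), both in log2(CPM + 1), with 25 points coloured by age. Points run from lower left to upper right (r = 0.72), and the point at the upper right is mouse 27 at 1 week.

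Other growth-linked miRNAs of the liver were read beside the pair at 6 months against 1 week. Over all 391 tested entries 36.8% were higher and 37.9% lower in that comparison, and each list is given beside these shares. By DESeq2 size factors 108 entries were higher and 174 lower, by library totals alone 91 and 188, and by upper-quartile factors 174 and 124. Of 15 miRNAs that promote growth, 3 were higher, 6 were lower and 6 did not pass, with a median log2 fold change of -0.26 against 0.12 over all tested entries. The split depended on the scaling, with 3 higher and 10 lower by DESeq2 size factors, 1 and 10 by library totals alone and 6 and 2 by upper-quartile factors. Higher under all 4 scalings was miR-21a-5p, at 2.37 ± 0.28. From the miR-106b cluster, miR-93-5p at -0.66 ± 0.15 and miR-25-3p at -0.60 ± 0.15, were lower but lost their calls by upper-quartile factors (adjusted p = 0.129 and 0.260). For miR-19a-3p, of the miR-17-92 cluster, the value was 1.08 ± 0.22, and 0.27 (adjusted p = 0.326) by library totals alone.

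Among 19 miRNAs that restrain growth, 18 were tested, of which 11 were higher, 4 were lower and 3 did not pass, with a median of 1.02 against 0.12 over all tested entries, of which 36.8% were higher and 37.9% lower. Library totals alone gave 9 higher and 7 lower, DESeq2 size factors 9 and 5, and upper-quartile factors 12 and 3. Here let-7a-5p, which represses Ras and Myc family genes, rose by 1.77 ± 0.14, and miR-26b-5p rose by 1.14 ± 0.18, both under all 4 scalings. The hepatocyte miRNA miR-122-5p was at 0.66 ± 0.12 but at -0.12 by library totals alone, and miR-16-5p, which targets cyclins, was at -0.18 ± 0.27 (adjusted p = 0.544). Of these named miRNAs, chosen by mean CPM, none had a value above the 2.88 of miR-221-3p. Among all 339 named and tested miRNAs that change was the 19th highest.

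Other miRNAs of the X chromosome were counted in the same way. Of 26 other X-linked miRNAs listed, of which miR-322-5p and miR-503-5p are also in the growth-restraining list, 20 were tested, and at 6 months against 1 week 5 were higher, 10 were lower and 5 did not pass (median -0.78), beside 36.8% higher and 37.9% lower of all entries (median 0.12). The count of higher ones was 3 by DESeq2 size factors, 1 by library totals alone and 6 by upper-quartile factors, against 12, 14 and 9 lower. The myeloid miR-223-3p was at -2.41 ± 0.22 and miR-322-5p, a cell cycle repressor of the miR-15 family, at -3.05 ± 0.35, both lower under all 4 scalings. Higher under all 4 was miR-361-5p, at 1.41 ± 0.18, while miR-98-5p, of the let-7 family, was at 0.39 ± 0.17 and at -0.42 by library totals alone. Between 12 and 6 months none of the tested members of these 3 lists was called, as for all entries.

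The entries whose pattern over the libraries was most like the mean of the pair, by Pearson r of log2(CPM + 1), were miR-29b-3p (0.96), miR-10b-5p (0.96), miR-10a-5p (0.96), let-7k (0.96) and let-7b-5p (0.95) over 25 libraries. The median over 337 miRNAs was -0.08. This measure takes in the gap between 1 week and the adults, over which miR-29b-3p went from 75.6 CPM at 1 week to 2731 over the adults. Over the 20 adult libraries the most alike were miR-10b-5p (0.81), miR-10a-5p (0.81), miR-3065-5p (0.79), miR-184-3p (0.71) and miR-99a-5p (0.71), against a median of 0.06. The counts of miR-10a-5p and miR-10b-5p were within 0.02 log2 units in every library and are not separate results. Both rankings take in the 6-week and 14-month libraries, whose difference chose the pair, and are descriptions only.

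Vesicles of several cell types could carry the pair, and fewer vesicles of a type and less RNA in each cannot be told apart in a mixed preparation. The 2 endothelial markers, arms of miR-126a, summed to between 21071 and 38902 CPM at 1 week and to between 41029 and 61308 at 6 months, ranges that did not overlap. The 7 stellate and smooth muscle markers summed to between 3912 and 6021 CPM at 1 week and between 6163 and 7963 at 6 months, and the 5 hepatocyte markers to between 399945 and 572121 and between 621777 and 897069. These 3 sums were higher at 6 months than at 1 week on the TMM scale, and sums by library totals alone were not computed. By library totals alone the most abundant marker of each list, miR-126a-3p, miR-143-3p and miR-122-5p, had log2 fold changes of 0.20, -0.15 and -0.12. Erythroid markers had a median sum of 739 and 267 CPM, with overlapping ranges, and epithelial markers had 1053 and 515 CPM, without overlap. Of the tested markers, 1 of 2 endothelial, 3 of 6 stellate and 5 of 5 hepatocyte entries were called higher at 6 months and 0, 1 and 0 lower, beside 36.8% higher and 37.9% lower of all entries. By library totals alone 0, 2 and 3 were higher and 1, 3 and 1 lower, beside 91 higher and 188 lower of 391 entries. Between 6 weeks and 6 months, where both strands were higher without overlap, the endothelial, stellate and hepatocyte sums all overlapped. At 6 weeks these sums ran from 44626 to 53622, from 6357 to 7725 and from 668246 to 756076 CPM. Leukocyte markers summed to a median of 9553 CPM at 1 week and 5339 at 6 months, with overlapping ranges. Of the tested leukocyte, erythroid and epithelial markers 0 were called higher at 6 months than at 1 week. Called lower were 4 of 6, 3 of 4 and 5 of 5, beside 37.9% of all entries. By library totals alone 5, 4 and 5 were lower and 0 higher. Every marker had a count at every age, and the part of any cell type in the level of the pair was not tested.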

How the data were processed

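Small RNA was counted in 25 vesicle libraries, 1 per mouse. Libraries were made with a QIAseq miRNA kit and sequenced as read pairs, per the labels' protocols. The authors deposited raw counts per entry, and the file's other column was taken as the length of each mature sequence. The submitters' processing notes name Bowtie, edgeR and mm10. Versions, annotation, mismatches and the use of molecular identifiers are not given in the sources used here. Wilson intervals and floors cover counting error only, while the normal intervals from the SE also take in the spread between mice. Reads kept apart or merged by unstated mismatches would move counts between like sequences.

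Entries passing filterByExpr (391 of 1493) were fitted in edgeR 4.0.16 (R 4.3.3) with TMM factors, a robust quasi-likelihood model of 5 ages and Benjamini-Hochberg adjustment over all tested entries at 0.05. The biological coefficient of variation was 37.6%. SE is the log2 fold change over the root of its F statistic. Tested were 6 months and 12 months against 1 week and 12 months against 6 months, and 7 other contrasts are described. On simulated data the model recovered 67.4%, 60.6% and 65.9% of 2-fold changes in the tested contrasts, in that order. For 4-fold changes the shares were 94.6%, 96.8% and 93.9%. Of the calls, 2.56%, 3.87% and 0.758% were of unchanged entries. These shares are over the simulated entries that passed the filter, 365, 368 and 320 of 391. Rises and falls were simulated in equal numbers, so the shares do not cover the dependence on scaling seen against 1 week. Ratios were compared by exact permutation (0.5 added to both counts where an arm had none), and correlations by 100000 permutations within age (scipy 1.17.1). No library repeated another of its age: over 50 such pairs, chi-squared divided by its degrees of freedom was at least 16.3. Nothing in the labels says whether mice shared litters, so p-values measure the spread between these mice.

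The members and lists were chosen with earlier results of these data known. Named were the members, up to 4 tested miRNAs of highest mean CPM from each list, and the 5 most alike in pattern over 25 and over 20 libraries. Alternatives were other scalings, no filter, DESeq2 1.42.0, depth as a covariate, only the ages compared and leaving out each mouse.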

Additional observations from a re-analysis of the deposited data

Results flagged for a closer look

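In 25 groups of 5 libraries (3 members and 2 ratios at 5 ages), 1 library stood apart by Dixon's criterion at 95%. Mouse 13 at 6 months had miR-222-3p at 76.3 CPM, below the other 4 mice of that age by 0.806 of the whole range. About 1 in 20 groups is marked by chance.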

How the results depend on the processing

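No paired analysis was possible because no mouse number occurs at more than 1 age. The calls of miR-221-3p and miR-222-3p at 6 and 12 months against 1 week kept direction and threshold in all 17 alternatives each, at 2.07 to 3.31 and 1.92 to 3.20 for miR-221-3p and 1.22 to 2.45 and 1.05 to 2.33 for miR-222-3p. With 1 mouse left out, miR-221-3p at 12 against 6 months ran from -0.19 to 0.042. The number of called members was then 3 in place of 2 for both comparisons with 1 week. The added call is description only, since the filter admits miR-221-5p through adult libraries. The log2 ratio of miR-222-3p to miR-221-3p kept its calls in all 11 alternatives for each comparison with 1 week; at 12 against 6 months, where no call was made, it was -0.00065 with 1 count added and -0.088 to 0.052 with a mouse left out. The log2 ratio of miR-221-3p to miR-221-5p changed sign without a call: with 1 count added it was 0.011 for 6 months and 0.29 for 12 months against 1 week, and with a mouse left out -0.80 to 0.15 and -0.49 to 0.46. Within ages, the correlation with library total was -0.19 for miR-221-3p by library totals alone, and for miR-222-3p 0.51 by DESeq2 size factors and 0.62 in 15 libraries, both past the threshold; the cause was not tested. Without a filter, 3 entries in place of 0 were called between 12 and 6 months. Counts of miR-221-5p, at most 21 in a library, limit every statement on the arms.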
